A study of Mus musculus with 2 samples.

Results

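The cells described here are 233 barcodes from the lamina propria of the mouse intestine, selected by the RNA counted in them: at least 3000 UMIs, at most 20% of them mitochondrial, at least 1 *Pdgfra* UMI, no *Ptprc* or *Pecam1* UMI, and at least 1 UMI of 3 or more of the 5 genes *Scg2*, *Tmem229a*, *Fibin*, *Cox8b* and *Chodl* (the rule genes). They are 233 of 6379 barcodes that pass the same limits with *Pdgfra*, and 233 of 13168 that pass the depth and mitochondrial limits. The study examined how the transcription factor Lef1 acts in intestinal epithelium that carries an *Apc* mutation. The single-cell libraries used here hold stroma sorted as negative for DAPI, Ter119, Epcam and CD45, a sort meant to leave out epithelium and blood cells, whose RNA was nonetheless found (below). Mice were C57BL/6 and 11 weeks old per the sample labels, while the paper's text gives 2 different ages. The *ApcMin* library is from *ApcMin/+;Lef1 +/+* mice and the *VApcMinL* library from *ApcMin/+;Lef1 fl/fl* mice with *Villin*-Cre. The join of these genotypes to the libraries rests on the sample titles. Villin-Cre acts in the intestinal epithelium from before birth, so the stroma of *VApcMinL* mice would lie beside epithelium that lost *Lef1* early. Both genotypes carry *ApcMin*, so no cells with normal *Apc* are at hand, and how many mice went into a library is not stated. Each genotype has 1 library, without replicates, of 93203061 UMIs in *ApcMin* and 101609269 in *VApcMinL*, and every interval below is an exact 95% interval that covers counting error only.

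*Pdgfra* marks several mesenchymal cells of the gut wall: fibroblasts of the lamina propria, flat cells under the epithelium that make Bmp and Wnt ligands, and interstitial cells of the muscle layer. The interstitial cells lie beside nerve endings and carry the purine receptor P2ry1 and the calcium-activated potassium channel Kcnn3, through which inhibitory signals pass to smooth muscle. Secretogranin II, the product of *Scg2*, is a protein of the dense-core granules of neurons and endocrine cells.

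In *ApcMin* 130 of 3054 *Pdgfra* cells were members and in *VApcMinL* 103 of 3325. Median depth was 12571 UMIs in *ApcMin* members and 9036 in *VApcMinL* members, against 13289.5 and 10689.5 in the other *Pdgfra* cells, so members were not the deepest barcodes. They held a median of 3843 and 3072 genes, and their median mitochondrial share was 4.67% and 5.02%, above the 2.92% and 3.22% of the other *Pdgfra* cells. Of the barcode sequences, 18 passed the limits in both libraries and 0 of those were members in both. The deleted gene *Lef1* had 0 UMIs in the members of either library (upper limits 2.07 and 3.12 CPM, UMIs per 1000000 UMIs of the pooled cells). In the other *Pdgfra* cells it had 14 and 16 UMIs. A 3' tag outside the deleted stretch checks nothing, and the Cre acts in epithelium, so these counts do not test the genotype.

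**Figure D1:**
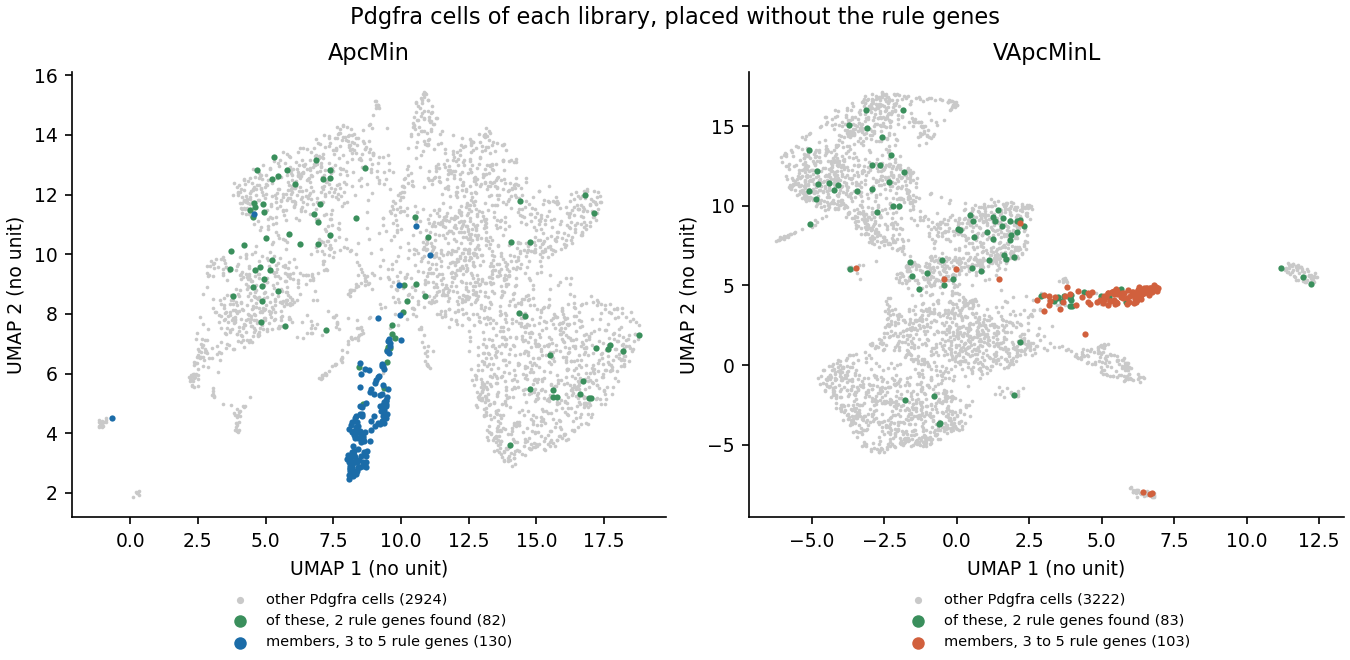
*Pdgfra* cells of each library placed by expression without the rule genes. Members are blue or orange, cells with 2 rule genes green and all others grey.

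The 5 rule genes were not alike in how often members carried them. *Chodl*, for a membrane lectin (ENSMUSG00000022860, chr16:78930948-78951733 of GRCm38), had a UMI in 128 of 130 and 101 of 103 members, and *Fibin*, for a secreted factor of fin and limb development (ENSMUSG00000074971, chr2:110360917-110363183), in 120 and 89. *Tmem229a*, for a membrane protein of unknown role (ENSMUSG00000048022, chr6:24951141-24956297), was found in 119 and 95. *Cox8b*, for a cytochrome oxidase subunit of muscle and brown fat (ENSMUSG00000025488, chr7:140898945-140900446), was found in 122 and 71. *Scg2* (ENSMUSG00000050711, chr1:79434669-79440120) stood apart: only 50 of 130 (38.5%, 30.1 to 47.4) and 39 of 103 (37.9%, 28.5 to 48.0) members had a UMI of it. The 13 and 10 members with the most *Scg2* held 79.7% and 83.6% of its UMIs, with up to 157 and 154 in a cell. Because most members lacked *Scg2*, they were not named after it and are called members below, and no cell type name was given.

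Such shares can depend on depth and on RNA free in the droplets, so B and plasma cells (787 and 600 barcodes, median depth 5792 and 4948.5 UMIs) served as a reference. Among them *Chodl* was found in 0.254% and 1%, *Fibin* in 0.254% and 1.17% and *Scg2* in 0.762% and 0.667%. After every cell was thinned to 3000 UMIs, *Chodl* was found in 77.7% and 80.6% of members and 0% and 0.667% of reference cells, *Fibin* in 75.4% and 72.8% and 0.254% and 0.333%, and *Scg2* in 26.9% and 26.2% and 0.635% and 0.167%. For *Chodl* and *Fibin* the other *Pdgfra* cells lay between, with *Chodl* in 16.3% and 16.8% and *Fibin* in 20.6% and 16.4% before thinning, so these 2 genes were not particular to members. Their levels were 764 CPM (724 to 805) in *ApcMin* and 934 CPM (880.2 to 991) in *VApcMinL* members for *Chodl*, with 69.7 and 79.1 CPM in the other *Pdgfra* cells, and 1529 CPM (1472 to 1588) in *ApcMin* and 857 CPM (805 to 911) in *VApcMinL* members for *Fibin*, with 30.7 and 28.4 CPM. *Scg2* had 631 and 863 CPM in members and 0.537 and 2.25 CPM elsewhere, *Tmem229a* 374 and 299 CPM and 0.953 and 0.910 CPM, and *Cox8b* 299 and 171 CPM and 0.733 and 1.63 CPM. These contrasts were built into the choice of members and measured nothing further.

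**Figure D2:**
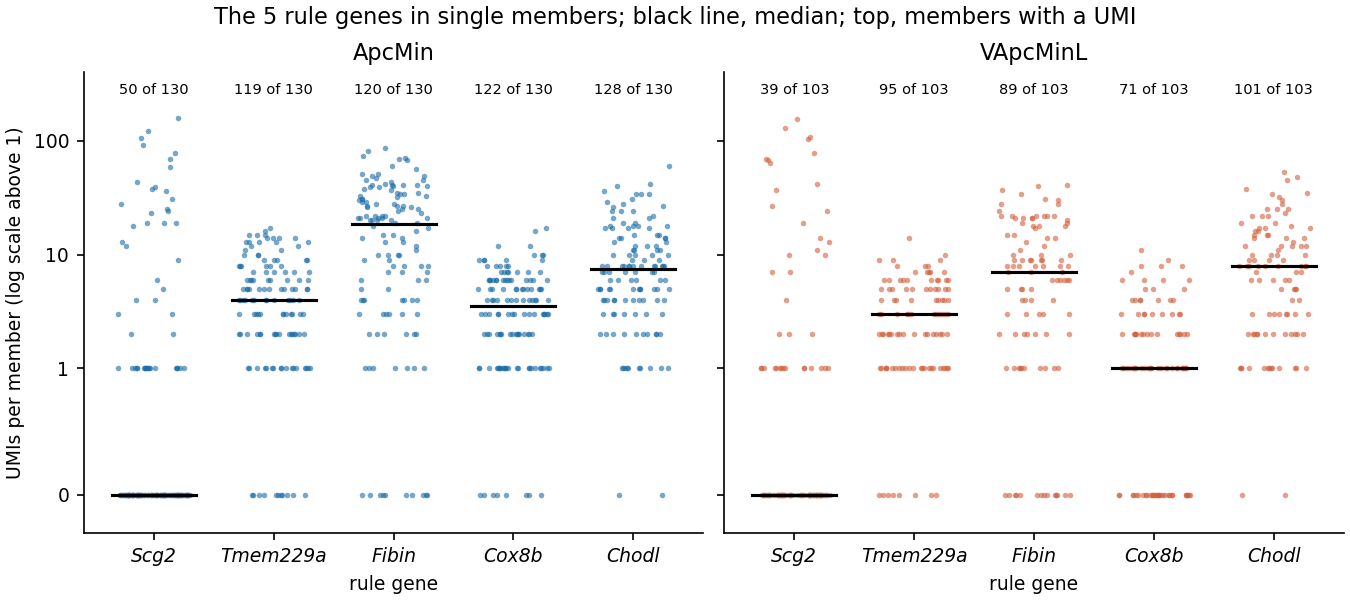
UMIs of each rule gene in each member, on a log scale above 1, with the median as a black line. The numbers on top give the members with a UMI.

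Fewer cells had 3 rule genes than had 2 or 4. Numbers of *Pdgfra* cells with 0, 1, 2, 3, 4 and 5 rule genes were 1848, 994, 82, 24, 63 and 43 in *ApcMin* and 2147, 992, 83, 37, 46 and 20 in *VApcMinL*. Members with exactly 3 had *Kcnn3*, which had no part in the choice, at 1319.9 and 1111 CPM in *ApcMin* and *VApcMinL*, and other cells with 2 at 319.8 and 446 CPM. The lamina propria marker *Adamdec1* went the other way, with 16.6 and 22.7 CPM in members with 3 and 1163 and 3032 CPM in cells with 2. The regulator of G protein signaling *Rgs5* had 1081 and 1596 CPM with 3, 489.8 and 532 CPM with 2 and 4079 and 3568 CPM with 4 or 5. For *Kcnn3* and *Rgs5* the cells with 2 rule genes thus lay below the members with 3, though 82 and 83 cells lay just under the threshold. After thinning to 3000 UMIs before the rule, 90 of 2543 *Pdgfra* cells were members in *ApcMin* and 64 of 2824 in *VApcMinL*. With the rule read on thinned counts, these were not all the same *Pdgfra* cells as above. Of the cells above, 37, 37 and 13 in *ApcMin* and 38, 20 and 5 in *VApcMinL* had 3, 4 and 5 rule genes after thinning.

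Clusters made from expression without the rule genes gathered nearly all members. At resolution 0.2, 125 of 130 *ApcMin* members (96.2%, 91.3 to 98.7) fell in a single cluster of 238 cells, and 94 of 103 *VApcMinL* members (91.3%, 84.1 to 95.9) in a cluster of 135. At resolution 0.5 the clusters held 149 and 140 cells with 124 and 94 members. The 25 and 46 cells of these clusters that were not members had *Kcnn3* at 700.3 and 422 CPM and *Kitl*, the ligand of the Kit receptor, at 358 and 414 CPM, where the members inside had 1664 and 1390.4 CPM and 1275 and 1183 CPM. Of these cells, 2, 10 and 13 in *ApcMin* and 10, 19 and 17 in *VApcMinL* had 0, 1 and 2 rule genes. The *VApcMinL* ones also had *Adamdec1* at 1233 CPM, *C3* at 1472 CPM and the epithelial *Epcam* at 565 CPM, where the members inside had 259, 374 and 9.05 CPM, and the *ApcMin* ones had 3.23, 1397 and 0 CPM where members had 17.5, 395 and 0.605 CPM. Cells unlike members were thus part of these clusters. Of the *Adamdec1* UMIs of *VApcMinL* members, 83.1% came from a single barcode. The 6 and 9 members outside the clusters had *Kcnn3* at 643 and 429.6 CPM, and they were deeper, with medians of 21797.5 and 18422 UMIs. They had *Grem1* at 1521 and 1177 CPM, where members inside had 232 and 360 CPM, and the *VApcMinL* ones had *Epcam* at 912 CPM and the enterocyte gene *Fabp2* at 5983 CPM.

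Members made up 4.26% (3.57 to 5.03) of *Pdgfra* cells in *ApcMin* and 3.098% (2.54 to 3.74) in *VApcMinL*, a ratio of 0.728 (0.556 to 0.950). Out of every barcode that passed the limits they formed 1.97% (1.65 to 2.33) in *ApcMin* and 1.57% (1.28 to 1.90) in *VApcMinL*, so that this ratio was 0.796 (0.609 to 1.04). The share was lower in *VApcMinL* by either count, and the interval of the second ratio included 1. *VApcMinL* members were also shallower, and the part of depth in the difference of shares was not tested. With 1 library for each genotype, a difference between mice or between sorts cannot be told apart from an effect of *Lef1*, and no such effect was tested.

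Pooled members were compared with the pooled other *Pdgfra* cells of the same library over 6557 genes with at least 20 CPM on average. Some genes reached this mean only through members or only through the others, so their direction followed from the limit. *Nell1* had 23.0 and 60.0 CPM in members and 0.122 and 0.375 CPM in the others, and *Hhip* 0 and 0.846 CPM and 28.4 and 75.0 CPM. Such genes count in the values below, and the comparisons with marker-chosen sets used the same limit. In both libraries 356 genes (5.43%) were at least 2-fold higher in members and 387 (5.9%) at least 2-fold lower. Taken alone, *ApcMin* had 535 higher and 631 lower and *VApcMinL* 494 and 466, and only 2 and 34 genes went in opposite directions by 2-fold. The median log2 ratio of all compared genes was 0.14 in each library. Of the higher genes 129 were at least 4-fold and 52 at least 10-fold higher in both, and of the lower genes 123 were at 0.25 or less and 13 at 0.1 or less. The 5 rule genes, set by the choice of members, count among the higher genes at each of these limits. *Pdgfra* itself was high in members, with 2222 CPM (2154 to 2293) in *ApcMin* and 1941 CPM (1862 to 2022) in *VApcMinL* members and 554 and 590.2 CPM in the others, ratios of 4.01 (3.88 to 4.15) and 3.29 (3.15 to 3.43). The rule asked for a UMI of it in both groups, so this difference in level was not set by the choice. *Apc*, mutated in every mouse here, had 99.7 and 92.2 CPM in members and 66.1 and 62.9 CPM in the others.

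**Figure D3:**
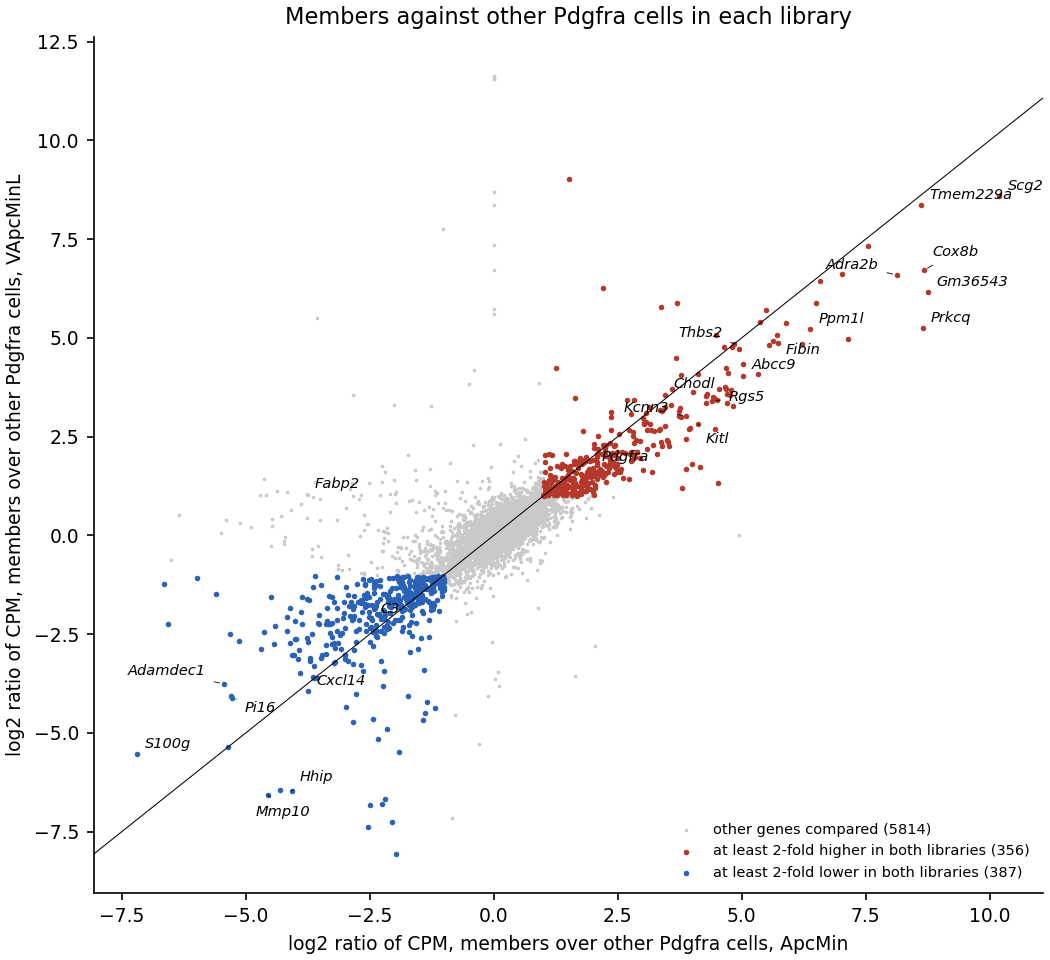
Log2 ratio of members over other *Pdgfra* cells in *ApcMin* (across) and *VApcMinL* (up), with genes at least 2-fold higher in both in red and lower in both in blue. Genes with 0 UMIs in a group are drawn at their bound.

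*Kcnn3*, the small-conductance potassium channel opened by calcium, had 1588 CPM (1530.1 to 1648) in *ApcMin* and 1237 CPM (1175 to 1302) in *VApcMinL* members and 108 and 153 CPM in the others, ratios of 14.7 (14.1 to 15.5) and 8.09 (7.63 to 8.57). It had a UMI in 99.2% and 100% of members, in 48.0% and 56.9% of the other *Pdgfra* cells and in 0.762% and 0.667% of reference cells. After thinning the shares were 96.9% and 93.2%, 22.1% and 32.7%, and 0.127% and 0.667%, so *Kcnn3* was not particular to members. *Cacna1g*, for a T-type calcium channel, had 117 and 107 CPM against 4.23 and 8.33 CPM, ratios of 27.7 (22.5 to 34.1) and 12.9 (10.4 to 15.9). The purine receptor *P2ry1* reached 91.9 and 99.8 CPM against 50.6 and 63.3 CPM, below 2-fold with ratios of 1.82 (1.54 to 2.13) and 1.58 (1.30 to 1.90). *Adra1a*, for an adrenergic receptor that raises calcium, had 71.2 and 56.7 CPM against 1.34 and 1.93 CPM and *Adra2b*, for a receptor that lowers cyclic AMP, 61.6 and 46.5 CPM against 0.220 and 0.482 CPM. Their ratios were 53.0 (38.3 to 74.1) and 29.4 (20.8 to 41.6) for *Adra1a* and 280.3 (142 to 629) and 96.5 (55.8 to 175) for *Adra2b*. Genes called in a list, or at 0, beyond its 6 most abundant were named below after their values were seen. Of the 7 markers of muscle-layer *Pdgfra* interstitial cells, 5 could be compared (median log2 ratios 3.88 and 3.02), and 3 were higher (*Kcnn3*, *Adra1a*, *Cacna1g*) and 1 lower, the gap junction gene *Gja1*. The list summed to 1920.3 and 1584 CPM in members and 289.5 and 399.8 CPM in the others, most of it *Kcnn3*. The labels name the lamina propria as the source, tissue position cannot be read from sorted cells, and whether members came from the muscle layer was not tested.

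*Kcnj8* and *Abcc9* code for the pore and the regulatory subunit of the same ATP-sensitive potassium channel, and both were high in members. *Kcnj8* had 229 and 282 CPM against 5.67 and 16.7 CPM (ratios 40.3 (34.2 to 47.6) and 16.9 (14.7 to 19.3)) and *Abcc9* 685 and 591 CPM against 21.0 and 35.8 CPM (ratios 32.6 (29.9 to 35.6) and 16.5 (15.04 to 18.1)). Their genes lie 16247 bases apart on chromosome 6. The voltage-gated potassium channel *Kcnh2* (35.3 and 45.7 CPM, ratios 46.6 and 28.4) and the modulatory subunit *Kcng4* (66.7 and 61.7 CPM, ratios 26.5 and 17.3) were higher as well. So were *Slc12a2*, for the sodium, potassium and chloride cotransporter (674 and 605 CPM, ratios 32.4 and 20.3), and *Fxyd6*, for a regulator of the sodium pump (874 and 729 CPM, ratios 23.4 and 13.1). Of the 16 genes listed for purine signaling and ion channels 10 were compared, with 4 higher (*Kcnn3*, *Cacna1g*, *Cacna1d*, *Kcnj8*) and 2 lower (*Entpd2*, *Gja1*), and median log2 ratios of 0.90 and 1.06. The lower *Entpd2* codes for an enzyme that splits ATP outside the cell.

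*Atp2a3*, for a calcium pump of the endoplasmic reticulum, had 219.7 and 167 CPM against 1.56 and 5.33 CPM (ratios 140.5 (108 to 186) and 31.4 (25.7 to 38.5)), and *Tesc*, for a calcium-binding protein, 60.5 and 49.9 CPM against 1.34 and 0.964 CPM (ratios 45.0 (32.3 to 63.5) and 51.8 (33.6 to 80.7)). *Prkcq*, for a protein kinase C (39.2 and 44.0 CPM, ratios 401 and 38.2), and *Prkar2b*, for a regulatory subunit of protein kinase A (593 and 429 CPM, ratios 25.2 and 13.6), were higher, as was *Ppm1l*, for a protein phosphatase (333 and 232 CPM, ratios 83.6 and 37.5). Chosen after their values were seen, the soluble guanylyl cyclase subunits *Gucy1a1* and *Gucy1b1*, which together sense nitric oxide, were high too. *Gucy1a1* had 1683 and 1306 CPM against 86.6 and 128 CPM and *Gucy1b1* 979 and 837 CPM against 45.0 and 75.0 CPM, and the genes lie 17737 bases apart on chromosome 3. Ratios were 19.4 (18.5 to 20.4) and 10.2 (9.59 to 10.8) for *Gucy1a1* and 21.8 (20.4 to 23.3) and 11.2 (10.4 to 12.0) for *Gucy1b1*. *Car8*, for a carbonic anhydrase relative that binds the inositol trisphosphate receptor, had 278 and 244 CPM against 12.4 and 7.31 CPM (ratios 22.5 and 33.4). None of these counts showed that a channel or receptor was at work in the cells.

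Of 13 genes for secretory granules 7 were compared and 5 were higher (median log2 ratios 4.42 and 4.24): *Scg2*, *Scg5*, *Cpe*, *Pcsk1n* and *Dner*. *Scg2* was set by the choice of members and counts in these values. *Scg5*, for a chaperone of the prohormone convertase Pcsk2, had 53.8 CPM (43.6 to 65.7) in *ApcMin* and 167 CPM (144 to 192) in *VApcMinL* members and 0.562 and 1.93 CPM in the others (ratios 95.7 (60.2 to 158) and 86.4 (65.7 to 115)). *Cpe*, for the carboxypeptidase that trims prohormones, had 352 and 252 CPM against 16.4 and 22.2 CPM (ratios 21.4 (19.2 to 23.9) and 11.3 (9.89 to 12.9)). *Pcsk1n* had 1 and 257 UMIs in members, nearly all of the second count from a barcode rich in neuron RNA (below), so its call rested on that barcode. The convertase gene *Pcsk1* had 0 UMIs in *ApcMin* members. Among 18 neuropeptides and peptide hormones 5 were compared (median log2 ratios -0.02 and 0.58), with 1 higher, *Edn3* for endothelin 3 (51.6 and 66.0 CPM against 4.69 and 6.88 CPM, ratios 11.0 (8.48 to 14.2) and 9.59 (7.34 to 12.4)). *Penk* for enkephalins (124 and 104 CPM against 713 and 432 CPM) and *Adm* for adrenomedullin (59.4 and 49.0 CPM against 176 and 227 CPM) were lower. *Dner*, for a membrane protein related to Notch ligands, had 298 and 196 CPM against 11.6 and 10.4 CPM (ratios 25.7 and 18.9).

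*Thbs2*, for a thrombospondin of the matrix, had 1536 CPM (1479.5 to 1595) in *ApcMin* and 1639.8 CPM (1568 to 1714) in *VApcMinL* members and 53.2 and 56.7 CPM in the others (ratios 28.9 (27.3 to 30.6) and 28.9 (27.2 to 30.8)), and *Jam2*, for a junctional adhesion molecule, 1128 and 741 CPM against 36.7 and 28.3 CPM (ratios 30.8 (28.8 to 32.9) and 26.2 (23.9 to 28.6)). *Nell1*, for a secreted glycoprotein, topped the naming order with ratios of 188 (74.4 to 609.8) and 160.2 (89.5 to 308) at a low level of 23.0 and 60.0 CPM. *Scube2*, for a protein that releases Hedgehog ligands from cells, had 62.2 and 63.4 CPM against 1.05 and 1.53 CPM (ratios 59.2 and 41.6). *Pla2g7*, for the enzyme that inactivates platelet-activating factor, had 421 and 360.3 CPM against 8.06 and 10.8 CPM (ratios 52.3 and 33.5). Further named genes were *Ank1*, for an ankyrin (124 and 82.0 CPM, ratios 90.9 and 58.9), *Cit*, for a kinase of cell division (67.2 and 45.7 CPM, ratios 41.1 and 42.6), and *Tnnt1*, for slow troponin T (72.3 and 82.9 CPM, ratios 27.9 and 27.2). The noncoding RNAs *AI504432* (131 and 118 CPM, ratios 131 and 98.3) and *Gm36543* (63.3 and 36.4 CPM, ratios 432 and 71.5) have no known role. Less is known of *Tmem200a* (209 and 133 CPM, ratios 74.4 and 28.8), *Pnmal2* (114 and 133 CPM, ratios 17.4 and 17.0) and the kinase gene *Nrk* (39.8 and 37.2 CPM, ratios 13.7 and 16.7). For *Pnmal2* a single barcode held 32.5% of the *VApcMinL* UMIs. *Pcp4l1* was named by rank only, since a single barcode held 97.7% of its *VApcMinL* UMIs.

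Contractile and energy genes differed in part. Of 11 contractile genes 7 were compared (median log2 ratios 2.46 and 1.19) and 4 were higher in members: *Acta2*, *Tagln*, *Myl9* and *Tpm2*. *Acta2*, for smooth muscle actin, had 468 and 148 CPM against 20.4 and 59.2 CPM (ratios 23.0 (20.8 to 25.3) and 2.50 (2.13 to 2.92)), and *Myl9*, for a myosin light chain, 372 and 194 CPM against 61.5 and 70.5 CPM (ratios 6.05 (5.54 to 6.59) and 2.75 (2.39 to 3.14)). Of 11 mitochondrial and thermogenic genes 6 were compared (median log2 ratios 1.19 and 0.97), and *Cox8b*, *Cox8a* and the brain creatine kinase *Ckb* were higher, while *Ucp1*, *Cidea*, *Cox6a2* and *Ckmt2* had 0 UMIs in members of both libraries. *Cox8a*, the broadly used counterpart of *Cox8b*, had 1185 and 1176 CPM against 464 and 539 CPM (ratios 2.55 (2.44 to 2.67) and 2.18 (2.06 to 2.30)). As a rule gene *Cox8b* was set by the choice of members, and it counts in the values of this list.

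Ligands for other cells were selective. *Kitl* had 1196 CPM (1146 to 1248) in *ApcMin* and 1049 CPM (991 to 1109) in *VApcMinL* members and 69.1 and 148 CPM in the others (ratios 17.3 (16.3 to 18.3) and 7.09 (6.66 to 7.54)), the only 1 of 17 compared chemokines and cytokines (of 23, median log2 ratios -2.16 and -1.55) that was higher, while 10 were lower. The lower ones included *Cxcl14* (10.6 and 16.1 CPM against 143 and 248 CPM), *Ccl11* (119 and 219.9 CPM against 1089 and 1574 CPM) and *Cxcl1* (122 and 269 CPM against 1174 and 794 CPM), which draw leukocytes. Of 9 vascular ligands 7 were compared (median log2 ratios -0.08 and -0.59): *Angptl2* was higher (1489 and 1303 CPM against 178 and 153 CPM, ratios 8.38 (8.01 to 8.76) and 8.54 (8.06 to 9.03)) and *Vegfc* and *Vegfd* were lower. Complement was low, with 7 of 8 compared genes (of 10) lower and median log2 ratios of -2.11 and -1.91. *C3*, its central component, had 489 and 624 CPM against 2691 and 2738 CPM, with 1095 and 1172 CPM in members with 3 rule genes and 335 and 298 CPM in those with 4 or 5. Of 11 prostaglandin genes 6 were compared (median log2 ratios -2.16 and -2.19): *Ptgis*, for prostacyclin synthase, was higher (431 and 339 CPM against 149 and 128 CPM), and *Ptgs1*, *Ptgs2*, *Ptges* and *Ptger4* were lower. Of 10 interferon-induced genes 8 were compared (median log2 ratios -0.67 and -0.99), with 0 higher and 2 lower (*Isg15*, *Irf1*).

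Niche ligands and their inhibitors act between stroma and epithelium. Among 9 Bmp ligands 4 were compared (median log2 ratios 0.03 and -0.24): *Gdf10* was higher (771 and 533 CPM against 199.8 and 179.5 CPM, ratios 3.86 (3.64 to 4.09) and 2.97 (2.73 to 3.22)) and *Bmp4* lower (75.1 and 105 CPM against 195 and 268 CPM, ratios 0.385 (0.322 to 0.457) and 0.391 (0.325 to 0.467)). Of 11 Bmp antagonists 6 were compared (median log2 ratios -0.78 and -0.65), with 0 higher and *Fst* lower, and *Grem1* at 328 and 490.5 CPM against 632 and 753 CPM. Members with 3 rule genes had *Grem1* at 768 and 846 CPM and those with 4 or 5 at 216 and 279 CPM, so its level depended on cells near the threshold. Bmp receptors and targets had 0 higher and 4 lower (*Smad7*, *Id2*, *Id3*, *Bambi*) of 8 compared (of 9, median log2 ratios -0.95 and -0.91). Of 10 Wnt ligands and R-spondins 2 were compared (median log2 ratios -1.2 and -0.85), and *Rspo3* was lower (14.01 and 16.9 CPM against 134 and 101 CPM) with *Wnt5a* at 240.4 and 172 CPM against 133 and 92.6 CPM. Of 9 Wnt inhibitors 4 were compared (median log2 ratios 1.06 and 0.36): *Notum*, for the enzyme that removes the lipid of Wnt proteins, was higher (34.7 and 36.4 CPM against 3.01 and 7.52 CPM, ratios 11.6 (8.38 to 15.8) and 4.83 (3.42 to 6.68)) and *Dkk2* lower. Wnt response genes had 0 higher and 0 lower of 2 compared (of 10, median log2 ratios -0.16 and 0.16), where *Lef1* was counted among those with 0 UMIs.

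In the Hedgehog list 5 of 10 genes were compared (median log2 ratios 0.18 and -0.92) and 0 were higher. Its only lower gene was *Hhip*, for a protein that binds Hedgehog ligands, with 0 and 1 UMIs in members and 28.4 and 75.0 CPM in the others, at least 16.9-fold lower in *ApcMin* (a bound only). Of 9 EGF family ligands 3 were compared (median log2 ratios -1.58 and 0.21) and *Ereg* was lower (5.04 and 2.54 CPM against 99.7 and 220.5 CPM, ratios 0.0506 (0.0231 to 0.0961) and 0.0115 (0.00237 to 0.0336)). The sum of the EGF list in *VApcMinL* members was 180.1 CPM, and 23.6 CPM without the 4 barcodes rich in neuron or epithelial RNA (below). The FGF list had *Fgf1* higher (44.3 and 57.5 CPM against 12.7 and 9.24 CPM) and *Fgf7* and *Fgfr2* lower of 5 compared out of 10 (median log2 ratios -0.84 and -0.02). Of 6 PDGF genes 3 were compared (median log2 ratios 0.41 and 1.24) and *Pdgfra* alone was higher. The TGF-beta list had *Tgfb2* higher and *Tgfbr3* and *Ltbp1* lower of 7 compared out of 10 (median log2 ratios -0.23 and -0.65). Of 8 IGF genes 6 were compared (median log2 ratios -1.31 and -1.19), with 0 higher and 3 binding proteins lower (*Igfbp3*, *Igfbp5*, *Igfbp6*). The retinoic acid list had *Cyp26b1*, whose enzyme degrades the ligand, higher (48.2 and 46.5 CPM against 8.92 and 9.77 CPM) and *Aldh1a2*, whose enzyme makes it, and *Rbp4*, for a retinol carrier, lower, of 9 compared out of 14 (median log2 ratios 0.31 and -0.07). Of 22 guidance genes 14 were compared (median log2 ratios 0.33 and -0.38): *Nrp2*, a receptor for semaphorins and Vegf, was higher (866 and 723 CPM against 44.5 and 62.2 CPM, ratios 19.5 (18.2 to 20.8) and 11.6 (10.7 to 12.6)) with *Robo2*, and *Sema3c*, *Slit3* and *Ntn4* were lower.

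Of the matrix lists, more genes were lower than higher in members. Of 20 collagen genes 17 were compared, 1 was higher (*Col13a1*, a membrane collagen) and 7 were lower, with median log2 ratios of -0.86 and -1.12 and list sums of 10384 and 8474 CPM against 19368 and 17581 CPM. *Col3a1*, a fibrillar collagen, had 2460.5 and 2023 CPM against 5811 and 4876 CPM. Of 11 basement membrane genes 9 were compared (median log2 ratios -0.93 and -0.75) and only *Hspg2* was lower, and of 14 matrix proteinases and inhibitors 12 were compared (median log2 ratios -1.35 and -0.86) with 5 lower and 0 higher. *Adamdec1*, a secreted protease of gut fibroblasts, had 26.9 and 226 CPM against 1175 and 3056 CPM (ratios 0.0229 (0.0169 to 0.0303) and 0.0739 (0.0653 to 0.0833)). Its level in *VApcMinL* members came mostly from a single barcode, which held 83.1% of the UMIs. Named lower genes of this kind were *Col6a6*, for a collagen VI chain (2 and 1 UMIs, ratios 0.0242 (0.00293 to 0.0877) and 0.0243 (0.000614 to 0.135)), and *Mmp10*, for a stromelysin (3 and 1 UMIs, ratios 0.0425 (0.00876 to 0.125) and 0.0105 (0.000267 to 0.0588)). *Mfap5*, for a microfibril protein, had 47.1 and 27.1 CPM against 579.9 and 332 CPM, and *Plau*, for urokinase, 8.41 and 6.77 CPM against 105 and 81.0 CPM. Immediate early and heat shock genes, which respond to tissue dissociation, were not higher: of 15 compared 0 were higher and 5 lower (*Fos*, *Junb*, *Egr1*, *Ier2*, *Zfp36*), with median log2 ratios of -0.95 and -0.78.

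Other named lower genes had varied roles. *Pi16*, of adventitial fibroblasts, had 7.28 and 6.77 CPM against 283 and 117 CPM (ratios 0.0257 (0.0137 to 0.0440) and 0.0580 (0.0250 to 0.114)), and *Sema3c*, for a guidance protein, 10.6 and 8.46 CPM against 161 and 95.05 CPM. *Prrx1*, for a homeobox factor of mesenchyme, had 9.53 and 5.07 CPM against 112 and 62.2 CPM (ratios 0.0850 (0.0495 to 0.136) and 0.0816 (0.0299 to 0.178)). *Apod*, for a lipid carrier, had 0 and 10 UMIs in members and 66.4 and 141 CPM in the others, at least 39.5-fold lower in *ApcMin* (a bound only). This direction turned under 2 alternatives, with a log2 ratio of 0.83 with at least 2 rule genes and 0.0457 with members taken from the cluster, where the higher of the 2 libraries' values was -4.06 by the rule used here. *Pcdh9*, for a protocadherin (2.24 and 5.07 CPM, ratios 0.0815 (0.0222 to 0.209) and 0.101 (0.0371 to 0.221)), and *Lbp*, for a lipopolysaccharide-binding protein (7.84 and 9.30 CPM, ratios 0.107 (0.0582 to 0.179) and 0.106 (0.0527 to 0.189)), were lower. *S100g*, for a calcium-binding protein of enterocytes whose RNA stood at 20.2 and 118 CPM in empty droplets, had 1 and 2 UMIs in members and 82.5 and 78.3 CPM in the others (ratios 0.00679 (0.000172 to 0.0379) and 0.0216 (0.00262 to 0.0781)). It had a UMI in 0.769% and 1.94% of members and in only 1.20% and 3.13% of the others, so few barcodes of either group carried it. The higher of the 2 libraries' log2 ratios was -5.53, but 0.0136 after thinning before the rule and 7.87 with members taken from the cluster, so this call did not hold there. Of 20 regional transcription factors 6 were compared (median log2 ratios 0.58 and 0.95): *Meis2* (1053 and 792 CPM against 251 and 229.9 CPM) and *Zfhx3* (403 and 368 CPM against 123 and 114 CPM) were higher and *Osr1* was lower. Of 19 Hox genes 8 were compared (median log2 ratios 0.68 and 0.60) and *Hoxb6* was higher. Cell cycle genes were sparse, with 1 of 10 compared and 62.8 and 53.3 CPM in sum.

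**Figure D4:**
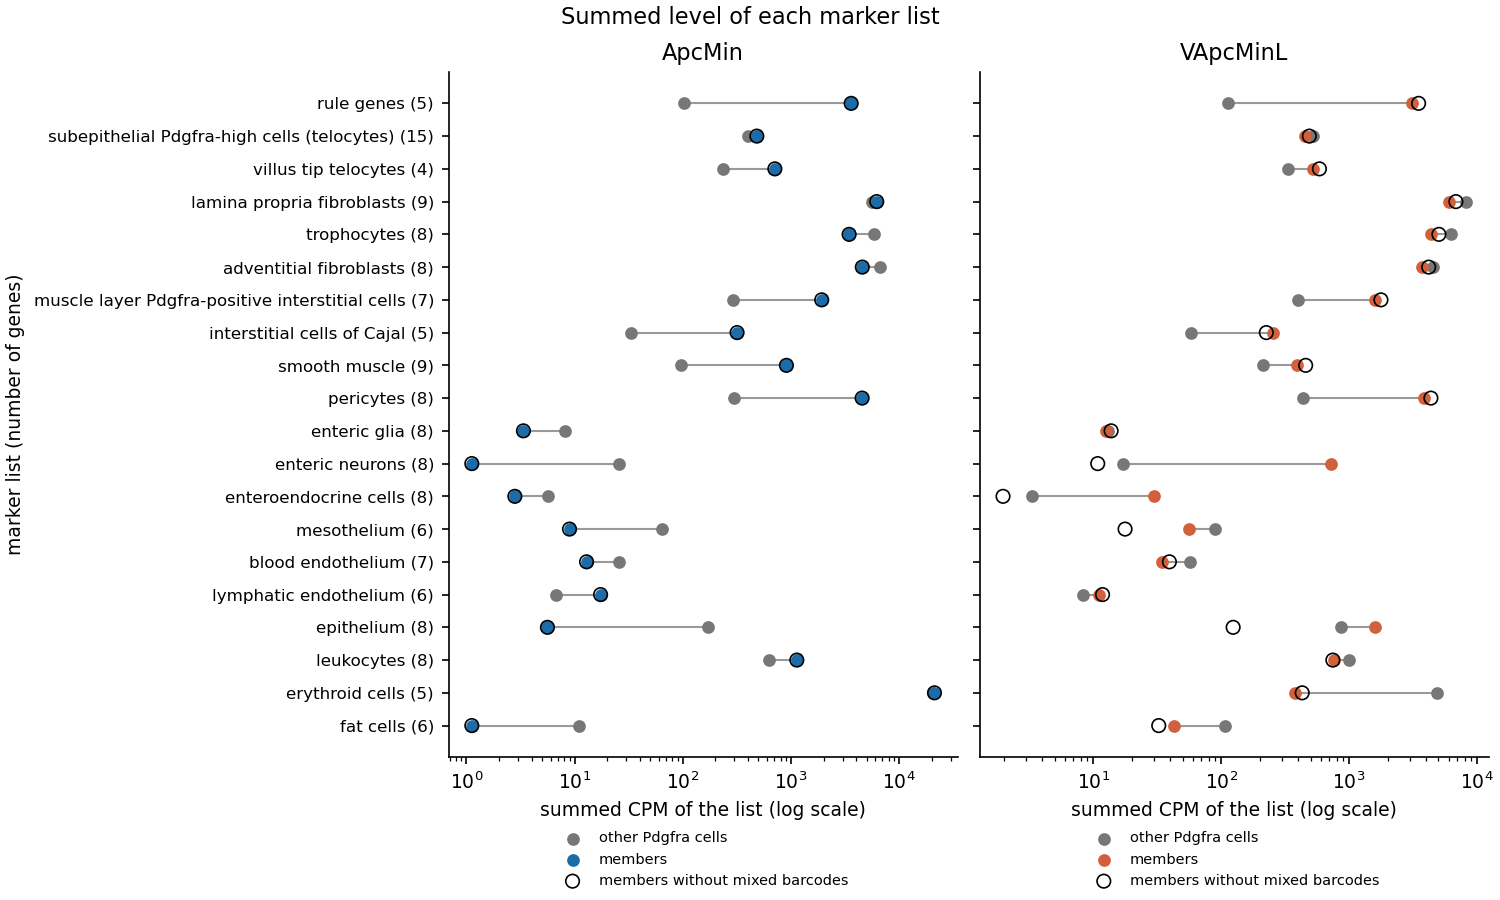
Summed level of each marker list in members and in other *Pdgfra* cells of each library, on a log scale. Open circles leave out the barcodes rich in neuron or epithelial RNA.

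Marker lists of other cell types were read in members to check what else their barcodes held. Of 8 pericyte markers 5 were compared (median log2 ratios 4.4 and 3.40) and 4 were higher (*Rgs5*, *Abcc9*, *Kcnj8*, *Cspg4*), with sums of 4540.5 and 3842 CPM against 295 and 438 CPM, most of it *Rgs5*. *Pdgfrb*, used as a marker of pericytes, was at 48.8 and 64.3 CPM against 85.1 and 90.7 CPM (ratios 0.573 (0.458 to 0.709) and 0.709 (0.557 to 0.889)), and *Mcam* had 4 and 6 UMIs. Of 9 smooth muscle markers 4 were compared (median log2 ratios 2.88 and 0.94), and *Acta2* and *Tagln* were higher. The list summed to 907 and 395 CPM against 97.1 and 212 CPM, while *Myocd* had 0 UMIs in *ApcMin* members and the myosin gene *Myh11* 8 and 8. Of 5 markers of interstitial cells of Cajal only *Etv1* was compared and it was higher (315 and 249 CPM against 30.4 and 48.1 CPM). *Kit* had 0 and 3 UMIs and *Ano1* 1 and 1, and the list summed to 317 and 256 CPM, nearly all *Etv1*. No set of these 3 cell types was drawn from the libraries as a reference, so whether members are of any of them was not tested. Whether the shared RNA came from the members or from other cells in the same droplets was not tested.

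Lists for other *Pdgfra* cells gave mixed results in members. Of 15 markers of subepithelial cells 4 were compared (median log2 ratios 1.07 and 0.76), with *Edn3* higher and *F3* lower and sums of 483 and 456 CPM against 400.3 and 520.2 CPM, with *Wnt5a* the most abundant. *Foxl1*, *Bmp3*, *Sox6* and *Wif1* had 0 UMIs in *ApcMin* members. Of 4 villus tip markers 2 were compared (median log2 ratios 1.29 and 0.68): *Tnc*, for tenascin C, was higher (633 and 416 CPM against 40.5 and 63.2 CPM, ratios 15.6 (14.5 to 16.9) and 6.59 (5.97 to 7.26)) and *Bmp4* lower, and the sum of 709 and 521 CPM against 236 and 332 CPM was mostly *Tnc*, with 0 *Npy2r* UMIs. Of 9 lamina propria markers 6 were compared (median log2 ratios 0.64 and 0.06), with *Fabp5* and *Lum* higher and *Adamdec1* and *Ccl11* lower. They summed to 6198 and 6048 CPM against 5554 and 8171 CPM, with *Lum* the most abundant and *Hapln1* at 0 in *ApcMin*. Of 8 trophocyte markers 7 were compared (median log2 ratios -0.95 and -0.62), 0 higher and 3 lower (*Rspo3*, *C3*, *Fgf7*), with sums of 3443 and 4393 CPM against 5811 and 6283 CPM, with *Sfrp1* the most abundant. All 8 adventitial markers were compared (median log2 ratios -2.83 and -1.91) and 6 were lower, with sums of 4557 and 3753 CPM against 6582 and 4501 CPM that were mostly *Dpt*. In none of the lists of this paragraph were all compared genes higher in members, and to which described cell members belonged was not tested.

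Lists for nerve, vessel and blood cells were read the same way. Enteric neuron markers, 3 of 8 compared with 0 higher or lower, summed to 1.12 and 725 CPM in members and 25.7 and 17.2 CPM in the others, with *Uchl1* the most abundant and 7 of 8 at 0 in *ApcMin*. A single *VApcMinL* member with 74793 UMIs, 64 of *Scg2* and 1 of *Pdgfra*, held 846 of its library's 857 neuron-list UMIs. Without it and 3 barcodes rich in epithelial RNA the sum was 10.8 CPM. Of 8 enteroendocrine markers 0 were compared, with sums of 2.80 and 29.6 CPM in members and 5.62 and 3.29 CPM in the others, led by *Chga* and *Chgb*, and *Neurod1* and *Pax6* at 0. Without these 4 barcodes the enteroendocrine sum of *VApcMinL* members was 1.97 CPM. Of 8 glial markers 0 were compared (3.36 and 12.7 CPM in members and 8.14 and 13.0 CPM in the others), with *Sox10* and *S100b* at 0. Epithelial markers, 5 of 8 compared with 0 higher or lower, summed to 5.60 and 1593 CPM in members and 172 and 869 CPM in the others, led by *Fabp2*, with *Muc2* at 0. The 3 barcodes just mentioned held 1753 of the 1884 epithelium-list UMIs of *VApcMinL* members, and the sum without the 4 was 124 CPM. Whether these barcodes were doublets or cells with much free RNA was not tested.

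Of 8 leukocyte markers 2 were compared with 0 higher or lower, and their sums of 1131 and 762 CPM in members and 623 and 994 CPM in the others were mostly *Jchain*, an abundant free RNA, with *Ptprc* at 0 by the rule. Blood endothelium (0 of 7 compared) summed to 12.9 and 34.7 CPM in members and 25.6 and 56.6 CPM in the others, led by *Plvap* and *Fabp4*, with *Pecam1* at 0 by the rule, and lymphatic endothelium (0 of 6) to 17.4 and 11.0 CPM in members and 6.79 and 8.33 CPM in the others, led by *Lyve1*. Mesothelium (1 of 6 compared) summed to 8.97 and 55.8 CPM in members and 64.4 and 89.6 CPM in the others, led by *Wt1* and *Krt19*, with *Upk3b* at 0. Its sum in *VApcMinL* members was 17.7 CPM without the 4 barcodes rich in neuron or epithelial RNA. Fat cell markers (0 of 6 compared) summed to 1.12 and 43.1 CPM in members and 10.9 and 107 CPM in the others, led by *Fabp4*, with *Adipoq* at 0. Erythroid genes, all 5 compared with 0 higher or lower in both, summed to 21172 and 379.7 CPM in members and 20635 and 4866 CPM in the others, led by *Hbb-bs*. Empty droplets had 70809 and 20657 CPM of them, so the *ApcMin* library had more free hemoglobin RNA. *Hba-a1* and *Hba-a2* are near-identical copies whose reads may be split between them, so their single values were uncertain. Sources of these RNAs were not tested.

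Members were also set against other *Pdgfra* sets chosen by marker rules. Against 12 and 114 subepithelial cells, 307 of 6727 compared genes (4.56%) were higher in members and 329 (4.89%) lower in both libraries. *Rgs5* had 3473 and 2833 CPM in members and 15.8 and 63.5 CPM in the subepithelial set (ratios 219 (75.0 to 1064) and 44.6 (37.1 to 54.2)), and *Pde3a*, for a phosphodiesterase that splits cyclic nucleotides, 1013 and 769 CPM and 26.4 and 31.5 CPM. *Lgi2*, for a secreted synaptic protein (1032 and 745 CPM), the circadian factor gene *Dbp* (374 and 176 CPM), *C1qtnf3*, for a secreted relative of C1q (117 and 89.6 CPM), and the carboxylesterase gene *Ces1d* (1086 and 1159 CPM) were higher as well, beside 31.7 and 28.7 CPM, 5.28 and 7.18 CPM, 5.28 and 3.86 CPM and 52.8 and 32.6 CPM in the set. *Spock2*, for a matrix proteoglycan, had 0 UMIs in the 12 *ApcMin* cells and was at least 21.8-fold higher there (a bound only). *Thbs2*, *Jam2* and *Ppm1l*, also high against all other cells, completed the 10 named. With 12 cells in *ApcMin* these ratios had wide intervals.

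The subepithelial set was chosen by *Wif1*, *Itgbl1*, *Bmp5*, *Nrg1* and *Foxl1*, so that the contrast in *Nrg1* was built into the choice. Among the 10 genes named as lower in members, *Nrg1*, for an Erbb ligand, had 2.24 and 7.61 CPM in members and 849.8 and 337 CPM in the set (ratios 0.00264 (0.000710 to 0.00688) and 0.0226 (0.0103 to 0.0431)), *Wnt4* 8.97 and 2.54 CPM and 549 and 189 CPM, and *Postn*, for periostin, 17.9 and 11.8 CPM and 2196 and 372 CPM. *Ereg* (311 and 219.7 CPM in the set), *Mmp10* (359 and 246 CPM) and the collagen VI genes *Col6a4* (158 and 96.6 CPM) and *Col6a5* (391 and 311 CPM) were higher there too. So were *Bmp3* (111 and 37.5 CPM), the transcription cofactor gene *Dach1* (73.9 and 30.9 CPM) and *Fgfr2* (158 and 279.9 CPM). Against 1321 and 1295 cells chosen by *Grem1*, *Ackr4* and *Rspo3*, 413 of 6482 genes (6.37%) were higher and 395 (6.09%) lower. Of 633 and 1359 cells with at least 2 *Adamdec1* UMIs, 231 and 704 were left once members and the sets above were taken out. Against these, 357 of 6761 (5.28%) were higher and 425 (6.29%) lower. Some members met these rules too and were kept out of the sets. They were 0 and 1 for the subepithelial rule, 46 and 32 for the *Grem1*, *Ackr4* and *Rspo3* rule and 6 and 5 for the *Adamdec1* rule. Pooled members, with those cells included, had *Kcnn3* at 1588 and 1237 CPM. The 3 sets had it at 89.7 and 78.4 CPM, 138 and 194 CPM and 110.1 and 190.2 CPM in that order.

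The spread of genes among members was taken as variance over mean. After thinning, 825 genes had a mean of at least 0.5 UMIs in both libraries, and their median variance over mean was 1.20 in *ApcMin* and 1.27 in *VApcMinL*. The nuclear RNA *Malat1* (35.3 and 80.6) and *Jchain* (67.0 and 26.4) spread widest by the lower of the 2 libraries' values. The actin-severing *Gsn* (17.9 and 15.6), the matrix genes *Dcn* (13.6 and 13.7) and *Mgp* (11.4 and 28.4), the immediate early *Fos* (11.7 and 10.6) and *Egr1* (15.9 and 10.4) and the complement gene *C3* (10.4 and 10.0) followed. *Hspa1a* (20.8 and 14.8) and *Hspa1b* (21.2 and 9.39) are near-identical copies with reads possibly split between them, so their values were uncertain. In the other *Pdgfra* cells the values were 38.4 and 43.2 for *Malat1*, 101 and 117 for *Jchain*, 15.3 and 18.1 for *Gsn* and 4.35 and 9.10 for *C3*, so wide spread of these genes was not limited to members. *Scg2*, above the mean limit in both libraries, had 21.3 and 25.6 in members and 0.999 and 13.8 in the others, and *Tmem229a* only 1.98 and 1.64. The cells that carried much *Scg2* were therefore compared with those that carried none.

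At least 5 *Scg2* UMIs were found in 25 *ApcMin* and 19 *VApcMinL* members, and none in 80 and 61. The neuron-rich barcode and the 3 epithelium-rich barcodes of *VApcMinL* were left out here. Median depths were 10211 and 10033 UMIs with and 12867 and 8863 without *Scg2*. Of 2783 genes compared at a minimum of 60 CPM only 1 was at least 2-fold higher with *Scg2* in both libraries, and 9 were lower. *Tesc* was higher, at 116 against 43.8 CPM in *ApcMin* and 65.8 against 24.1 CPM in *VApcMinL*. Lower were *Tagln*, at 179.5 against 442 CPM in *ApcMin* and 80.0 against 243 CPM in *VApcMinL*, the long noncoding *Neat1*, at 84.5 against 172 CPM in *ApcMin* and 188 against 393 CPM in *VApcMinL*, and the tetraspanin gene *Cd9*, at 137 against 292 CPM in *ApcMin* and 75.3 against 174 CPM in *VApcMinL*. The tubulin-binding *Tppp3*, the collagen gene *Col15a1*, the cell cycle inhibitor *Cdkn1a*, the haptoglobin gene *Hp*, the calcium-binding *S100a10* and the chemokine gene *Cxcl1* were the other 6, and these genes were named after their values were seen. In both libraries *Tesc* lay below 60 CPM without *Scg2*, and *Tppp3*, *Col15a1*, *Cdkn1a*, *Hp* and *S100a10* lay below it with *Scg2*. Those genes could be compared only through the group where they were higher. *Kcnn3* differed by less than 2-fold, with 1742 against 1517 CPM in *ApcMin* and 1336 against 1377 CPM in *VApcMinL*, and so did *Pdgfra*, with 2925 against 1958 CPM in *ApcMin* and 2356 against 2145 CPM in *VApcMinL*.

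Between genotypes, members were compared over 4658 genes with at least 100 UMIs in at least 20 cells. *VApcMinL* was at least 2-fold higher for 112 (2.4%) and at least 2-fold lower for 44 (0.945%), with a median log2 ratio of -0.05 over all compared. Of the higher genes 28 were also 2-fold higher in the other *Pdgfra* cells and 52 in empty droplets, and of the lower genes 6 and 8. The shares of all 4658 compared genes past 2-fold there are not given, so whether these overlaps exceed them was not tested. The 15 named higher genes were nearly all of epithelium. *Fabp1* and *Fabp2*, for fatty acid carriers of enterocytes, had 2 and 794 and 5 and 1210 UMIs, *Rbp2*, for a retinol carrier, 1 and 673, and *Apoa1*, for an apolipoprotein, 13 and 1580. The peptide hormone gene *Guca2b* had 1 and 359, the protease inhibitor gene *Spink1* 3 and 441, *Prap1*, for a secreted acidic protein, 2 and 192, and the galectin gene *Lgals4* 6 and 329. *Smim24*, for a small membrane protein (6 and 267), the aminopeptidase gene *Anpep* (17 and 225), the brush border scaffold gene *Slc9a3r1* (9 and 98) and the lipid transfer gene *Mttp* (24 and 165) were low in *ApcMin* and high in *VApcMinL* too. The antimicrobial lectin genes *Reg3b* (14 and 756) and *Reg3g* (3 and 113) resemble each other so closely that reads may be split between them, and their values were uncertain. *Rtn1*, a neuronal gene (17 and 188), had 93.6% of its *VApcMinL* UMIs in a single barcode. Without the 3 epithelium-rich barcodes and the neuron-rich barcode, *Fabp2* kept 83 of its 1210 UMIs and *Rtn1* 12 of 188, and the comparison was repeated without those 4, a step chosen after seeing the data.

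**Figure D5:**
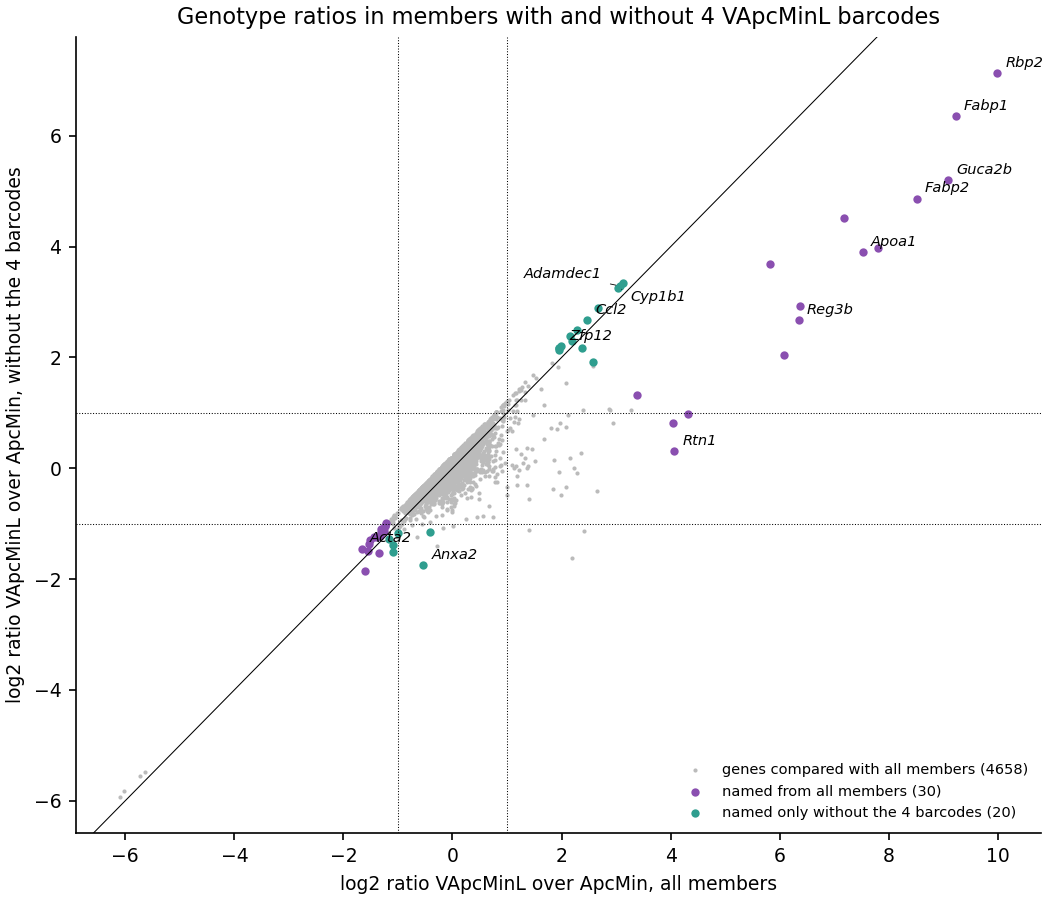
Log2 ratio of *VApcMinL* over *ApcMin* in all members (across) and without the 4 *VApcMinL* barcodes rich in neuron or epithelial RNA (up). Dotted lines mark 2-fold.

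Without the 4 barcodes, 99 *VApcMinL* members remained and 4390 genes were compared, of which 57 were at least 2-fold higher in *VApcMinL* and 33 lower. Barcodes rich in these RNAs were left out of the other *Pdgfra* cells here as well. Of these, 42 higher and 24 lower genes were in the earlier count. Among the 57 higher genes 18 were also 2-fold higher in empty droplets and 11 in the other *Pdgfra* cells, again without the share over all compared genes. *Apoa1* still led, with 7.28 CPM (3.88 to 12.5) in *ApcMin* and 109 CPM (89.9 to 132) in *VApcMinL* (ratio 15 (8.42 to 29.1)), but its level in empty droplets was 284 and 4848 CPM, and the part of free RNA in it was not tested. *Ccl2*, for a monocyte chemokine, had 74.5 CPM (62.4 to 88.3) in *ApcMin* and 477 CPM (435 to 521) in *VApcMinL* (ratio 6.39 (5.27 to 7.81)), in 15 and 14 cells. The cytokine gene *Il6* had a ratio of 5.22 (3.46 to 8.05) in 11 and 11 cells. The protease gene *Adamts4* (10.2 (5.85 to 19.0)), the oxidase gene *Cyp1b1* (9.49 (5.85 to 16.1)), the methyltransferase gene *Inmt* (7.44 (5.46 to 10.3)), the acute phase gene *Serpina3n* (5.64 (4.38 to 7.31)), the metallothionein gene *Mt2* (4.91 (3.84 to 6.34)), the pseudokinase gene *Trib1* (4.52 (3.03 to 6.88)) and the carboxypeptidase-like gene *Cpxm1* (4.49 (3.16 to 6.49)) were the other named higher genes. A single barcode held 83.1% of *Adamdec1* UMIs and 84.5% of UMIs of the zinc finger gene *Zfp12* in *VApcMinL*, and 66.7% of those of *Adamts4*, 51.3% of *Cpxm1*, 47.8% of *Trib1*, 43.2% of *Il6*, 39.9% of *Ccl2*, 37.6% of *Serpina3n*, 31.5% of *Inmt* and 27.6% of *Mt2*, so these ratios rested on few cells.

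More widely carried were *Apoe*, for a lipid carrier, with 173 CPM (154 to 194) in *ApcMin* and 777 CPM (724 to 833) in *VApcMinL* (ratio 4.49 (3.93 to 5.13)), *Gsta3*, for a glutathione transferase (67.2 CPM (55.8 to 80.4) in *ApcMin* and 296 CPM (264 to 332) in *VApcMinL*, ratio 4.41 (3.56 to 5.49)), and *Plac8* (ratio 3.77 (3.08 to 4.64)). *Plac8* stood at 278 and 1726 CPM in empty droplets, above the 79.6 and 300.3 CPM of members, and the part of free RNA in it was not tested. *Apoe* went with a ratio of 3.33 (3.28 to 3.37) in the other *Pdgfra* cells. It stood at 878 and 1373 CPM in empty droplets, above members, and a single barcode held 24.7% of its *VApcMinL* UMIs. *Gsta3* had 1.68 (1.62 to 1.74) there and low levels in empty droplets (18.8 and 46.3 CPM). It was found in 40 of 130 and 52 of 99 members.

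Lower in *VApcMinL* members was *Acta2*, with 468 CPM (437 to 501) in *ApcMin* and 171 CPM (147 to 199) in *VApcMinL* after the 4 barcodes were left out, a ratio of 0.366 (0.309 to 0.431). In the other *Pdgfra* cells it went the opposite way, with a ratio of 2.99 (2.76 to 3.24). Over all members the ratio was 0.316 (0.267 to 0.372). The calponin gene *Cnn2* (0.421 (0.316 to 0.554)) and, over all members, *Tagln* (0.469 (0.396 to 0.553)) and *Myl9* (0.520 (0.446 to 0.606)) were lower or near 2-fold lower, and the contractile list summed to 2123 and 1224 CPM in *ApcMin* and *VApcMinL* members. Genes induced by interferon, *Ube2l6* (0.356 (0.198 to 0.604)), *Nmi* (0.381 (0.232 to 0.603)) and *Ddx58* (0.444 (0.268 to 0.708)), were among the 15 named lower genes, but of 5 genes of the interferon list compared 0 passed 2-fold. *S100a6*, for a calcium-binding protein, had 1446 CPM (1390.5 to 1503) in *ApcMin* and 616 CPM (572 to 662) in *VApcMinL* over all members (ratio 0.426 (0.392 to 0.463)), beside a ratio of 0.598 (0.593 to 0.603) in the others. The caveola genes *Cavin2* (0.387 (0.238 to 0.606)) and, over all members, *Ehd2* (0.424 (0.298 to 0.594)) were lower too, as was, without the 4 barcodes, the cyclooxygenase gene *Ptgs2* (0.409 (0.259 to 0.626)). Other named lower genes were the annexin gene *Anxa2* (0.297 (0.190 to 0.448)), the carboxypeptidase gene *Cpm* (0.423 (0.246 to 0.696)), the mitochondrial carrier gene *Slc25a24* (0.449 (0.268 to 0.725)) and the methionine sulfoxide reductase gene *Msrb3* (0.457 (0.300 to 0.679)). *Vopp1* (0.351 (0.199 to 0.587)) and *Trp53i11* (0.430 (0.263 to 0.678)) had less certain roles. In *ApcMin* the top barcode of each gene held 39.7% of *Ptgs2* UMIs, 28.8% of *Anxa2* and 23.8% of *Ube2l6*. The *Ptgs2* ratio thus rested on few cells. Over all members the Polycomb gene *Pcgf3* (0.391 (0.230 to 0.639)), the poly(A) polymerase gene *Fam46c* (0.402 (0.245 to 0.637)) and the nuclear body gene *Sp100* (0.431 (0.277 to 0.652)) were lower. *Amd2* and *Gm8797* resemble other genes closely, and reads may be split between copies. Their ratios of 0.412 (0.2498 to 0.655) without the 4 barcodes and 0.327 (0.185 to 0.550) over all members were uncertain. Of the 33 lower genes 7 were also at least 2-fold lower in the other *Pdgfra* cells and 8 went the opposite way. Others were lower there by less than 2-fold, such as *Cavin2* (0.558) and *Nmi* (0.794). The share over all compared genes is not given beside these counts either.

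Of the genes high in members, some differed by less than 2-fold between genotypes and some by more. *Kcnn3* had a *VApcMinL* over *ApcMin* ratio of 0.779 (0.731 to 0.830), *Kitl* 0.877 (0.817 to 0.941), *Pdgfra* 0.873 (0.829 to 0.920), *Thbs2* 1.07 (1.01 to 1.13) and *Rgs5* 0.816 (0.782 to 0.851). Beyond 2-fold, *Scg5* had 3.097 (2.41 to 3.995) and *Nell1* 2.61 (1.75 to 3.94), but the other *Pdgfra* cells had 3.43 (2.12 to 5.75) and 3.07 (1.04 to 10.9), and a single barcode held 23.4% of *Scg5* UMIs of *VApcMinL* members. The rule genes *Fibin* (0.560 (0.521 to 0.602)) and *Cox8b* (0.571 (0.483 to 0.672)) were lower in *VApcMinL* and *Scg2* (1.37 (1.25 to 1.49)) was higher, none of them by 2-fold. As rule genes they served to choose members, so the choice bears on these ratios. An effect of *Lef1* on these cells was not tested, as a genotype here cannot be told apart from a library. Where the cells lay in the gut wall, and whether their RNA for channels and receptors yielded protein, was not tested either.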

How the data were processed

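The authors made the deposited UMI counts with Cell Ranger from 10x Genomics 3' libraries and mouse build mm10 (GRCm38), and kept every droplet barcode without normalization or cell calling. The labels name Cell Ranger 2.1.1 and the file headers software 3.1.0. The authors went on with Seurat 3.1.1, which was not used here.

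Members and lists were chosen with earlier results of these data known. UMIs were summed over the cells of a group in each library and divided by the group's total to give CPM. Intervals of CPM are exact Poisson intervals, those of shares Clopper-Pearson intervals, and those of ratios come from the conditional binomial. A ratio against 0 UMIs was bounded by setting the 0 to 3. Genes were compared with the other *Pdgfra* cells where the mean of the 4 CPM values reached 20, and between genotypes where both libraries together held at least 100 UMIs in at least 20 members. Between members with and without *Scg2* the minimum was 60 CPM. Empty droplets were the barcodes ranked 45000 to 90000 by UMIs, and reference cells had at least 2 *Cd79a* UMIs and no *Pdgfra* or *Pecam1* UMI. Clusters came from the Leiden algorithm within each library, on 2000 variable genes without the rule genes, 20 principal components and 20 neighbors. The sets beside members had at least 3 of the 5 subepithelial genes *Wif1*, *Itgbl1*, *Bmp5*, *Nrg1* and *Foxl1*, at least 2 of the 3 genes *Grem1*, *Ackr4* and *Rspo3*, or at least 2 *Adamdec1* UMIs. A cell that met several rules went to members first and then to the sets in this order.

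The genes named were, in both libraries, the 30 with the largest and 15 with the smallest ratios to the other *Pdgfra* cells, the 10 largest and 10 smallest against the subepithelial set, the 15 largest and 15 smallest between genotypes, the 10 of widest spread, and up to 6 of the most abundant of each of 51 lists with 490 genes. Rule genes, *Pdgfra*, mitochondrial, hemoglobin, immunoglobulin, *Gm42418*, *Xist* and Y-linked genes were left out of these ranks. Some genes that the rule names are not reported. The alternatives tried were other minimums of rule genes, UMIs and *Pdgfra*, a mitochondrial limit of 10%, cells thinned to 3000 UMIs before or after the rule, the highest Scrublet scores left out at 0.8% per 1000 barcodes, lower count minimums and other cluster resolutions. Leaving out barcodes rich in neuron or epithelial RNA (at least 10 UMIs or 0.5% of UMIs from those lists) and taking members from the cluster were chosen after seeing the data.

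No p-values were computed. The calculations were tested on simulated counts with counting error only and with set changes larger than the 2-fold limit. There 100 of 100 genes set higher and 100 of 100 set lower were found and 0 of the others were called. The simulation had no spread between cells and no barcode that held most of a gene's UMIs. It checks the arithmetic and gives no rate of false calls for these data. Members summed to 1784606 UMIs in *ApcMin* and 1182486 in *VApcMinL*. Work was done in Python 3.11.15 with numpy 2.4.6, scipy 1.17.1, pandas 2.3.3, scanpy 1.11.5, anndata 0.12.19, igraph 0.11.9 and matplotlib 3.10.9.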

Additional observations from a re-analysis of the deposited data

Results flagged for a closer look

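Of the genes with enough UMIs to be compared between genotypes, 6 were at least 2-fold lower in members than in the other *Pdgfra* cells of *ApcMin* and at least 2-fold higher in *VApcMinL*, that is, the libraries went opposite ways. They were named after their values were seen. The ratios were 0.0731 in *ApcMin* and 2.05 in *VApcMinL* for *Fabp2*, 0.0747 and 2.02 for *Guca2b*, 0.205 and 2.04 for *Anpep*, 0.139 and 2.49 for *Smim24*, 0.0556 and 2.14 for *Spink1*, and 0.256 and 2.13 for *Nsg1*, a gene for vesicle traffic in neurons. The difference between the libraries was not tested. Without the barcodes rich in neuron or epithelial RNA (4 *VApcMinL* members), *Fabp2* kept 83 of 1210 UMIs, *Guca2b* 21 of 359, *Anpep* 19 of 225, *Smim24* 14 of 267, *Spink1* 27 of 441 and *Nsg1* 27 of 113. Such barcodes were left out of the other *Pdgfra* cells too, 7 rich in neuron and 36 in epithelial RNA in *VApcMinL* and 4 and 7 in *ApcMin*. With both groups so reduced, the *VApcMinL* ratios were 0.996, 1.09, 0.548, 0.955, 0.876 and 0.569 in the same order, none of them 2-fold higher, and the *ApcMin* ratios, from which no member was left out, were 0.352, 0.433, 0.243, 0.449, 0.511 and 0.253. How epithelial RNA came into those barcodes was not tested.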

How the results depend on the processing

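No paired analysis was possible, as 1 library stands for each genotype, so only the choice of cells and genes was varied. The ratio of the shares of *Pdgfra* cells, *VApcMinL* over *ApcMin*, lay between 0.572 and 0.863 in 10 alternatives, each inside the interval given above and below 1. At resolution 0.5 as at resolution 1, 95.4% of *ApcMin* and 91.3% of *VApcMinL* members fell in a single cluster. Counts of genes past 2-fold were within 1.5 times those reported in 10 of 12 alternatives for genes higher in members, 10 of 12 for lower, 6 of 11 for higher between genotypes and 9 of 11 for lower. Log2 ratios to the other *Pdgfra* cells are the higher of the 2 libraries' values for *Apod* and *S100g*, named as lower, and the lower for *Pcp4l1*, named as higher. With at least 2 rule genes, 189 genes were higher in members and 142 lower, and *Apod* had a log2 ratio of 0.83 in place of -4.06. With at least 4, 64 genes were higher in *VApcMinL*, of 3639 compared where 4658 were compared before. After thinning before the rule, 690 genes could be compared between genotypes, so fewer could pass, and 2 were higher and 13 lower. In those cells *S100g* had a log2 ratio of 0.0136 in place of -5.53 against the other *Pdgfra* cells, and *Rtn1* and *Mttp* had -1.09 and -0.73 between genotypes in place of 4.06 and 3.38. Leaving out the barcodes rich in neuron or epithelial RNA gave 57 genes higher in *VApcMinL* and -0.49 for *Pcp4l1*, the *VApcMinL* value, in place of 4.65, the *ApcMin* value. Its *VApcMinL* UMIs came mostly from a barcode so left out. Taking members from the cluster gave 185 genes higher in *VApcMinL*, 7.87 for *S100g* and 0.0457 for *Apod*. With no minimum other than 20 UMIs, 15906 genes were compared in members and 10036 between genotypes, so more could pass, and 987 were higher and 792 lower in members, and 779 higher and 291 lower in *VApcMinL*. Other than the numbers of genes compared and the barcode of *Pcp4l1*, the cause was not tested for any of these. Of the 75 gene values named by rank against the other *Pdgfra* cells or between genotypes, 75 stayed within their intervals with the lower minimum of UMIs, 71 with the higher, 70 with at least 2 *Pdgfra* UMIs, 64 without doublets, 61 with at least 4 rule genes and 60 at a mitochondrial limit of 10%. In the others 52 did without the barcodes rich in neuron or epithelial RNA, 38 in the cluster, 30 with at least 2 rule genes and 22 after thinning. The Scrublet rule left out 12 *ApcMin* and 14 *VApcMinL* members, 9.23% and 13.6% of them, against 4.72% and 3.88% of the other *Pdgfra* cells. Depth limited the genotype comparison, as 100 UMIs were asked of a gene in 233 cells.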
